A study of Homo sapiens with 8 samples.

Results

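Transcripts of 10 transient receptor potential (TRP) channel genes were followed in 2 triple-negative breast cancer lines, MDA-MB468 and BT549. They were TRPM4, the reported target of the laxative Acetalax, and 9 relatives from the same superfamily: TRPM2, TRPM7, TRPC1, TRPV1, TRPV2, TRPV6, MCOLN1, PKD1 and PKD2. They were picked by symbol out of 55679 gene identifiers in the count table, of which 14030 averaged at least 1 CPM (counts on a gene per 1000000 counts on all genes of the library). That level was reached by 9 of the 10, and TRPV2 was the exception. RNA was selected for poly(A) tails and sequenced in 8 libraries, 1 per condition, so differences within a single pair of libraries have no replicate check.

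The MDA-MB468 and BT549 cells each provided 4 libraries: parental control, parental after Acetalax (oxyphenisatin acetate) at 1 μmol/L for 6 hours, CE control, and CE after the same Acetalax dose and time. CE cells had been chronically exposed to rising Acetalax up to 40 μmol/L, and had then been kept without the drug for 2 weeks before the experiment. Each CE population is a single derivative of its line, and the 4 libraries of a line are not independent cultures as far as the labels say. The question was which TRP channels besides TRPM4 are transcribed in these cells, and which of them are higher or lower in CE cells.

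TRP channels are cation pores in the plasma membrane or in the membranes of organelles. TRPM4 is opened by intracellular calcium but passes only monovalent cations such as sodium, whereas most of its relatives also let calcium through. Among the other members, TRPM7 carries magnesium and calcium and has a kinase domain, TRPV6 is a calcium-selective epithelial channel, MCOLN1 (mucolipin-1) releases calcium from lysosomes, and PKD1 and PKD2 form the polycystin complex of the primary cilium.

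Gene positions are given on hg19. TRPM4 lies at chr19:49660998-49715093 on the plus strand, MCOLN1 at chr19:7587512-7598895 on the plus strand, TRPC1 at chr3:142442916-142526730 on the plus strand, PKD2 at chr4:88928820-88998929 on the plus strand and TRPM7 at chr15:50844670-50979012 on the minus strand. The 250 bases before the start of these 5 genes are shown because TRPM4, MCOLN1, TRPC1 and PKD2 are the members whose level differed between CE and parental cells by test, and TRPM7 shares an element with MCOLN1 without such a difference having passed. They come from RefSeq on GRCh38.p14, which had a promoter for 9 of the 10 members. Capitals mark CACGTG, the core of the E-box read by the lysosomal regulators TFEB, TFE3 and MITF, and the GC box GGGCGG, read by Sp1-type factors, on either strand (CCGCCC is the GC box on the other strand). Each is written 5′ to 3′ on the strand of its gene.
TRPM4 (chr19:49157542-49157791, plus strand): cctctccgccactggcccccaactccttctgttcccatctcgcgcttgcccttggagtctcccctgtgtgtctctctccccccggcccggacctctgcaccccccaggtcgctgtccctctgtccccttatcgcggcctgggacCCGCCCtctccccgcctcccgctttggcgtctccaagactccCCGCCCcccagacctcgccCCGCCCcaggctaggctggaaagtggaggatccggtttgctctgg
MCOLN1 (chr19:7522374-7522623, plus strand): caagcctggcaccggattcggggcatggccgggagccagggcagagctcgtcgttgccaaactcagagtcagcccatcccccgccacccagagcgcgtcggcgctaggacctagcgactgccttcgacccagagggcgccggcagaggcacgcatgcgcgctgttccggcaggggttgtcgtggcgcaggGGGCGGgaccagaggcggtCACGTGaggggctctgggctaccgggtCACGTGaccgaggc
TRPM7 (chr15:50686798-50687047, minus strand): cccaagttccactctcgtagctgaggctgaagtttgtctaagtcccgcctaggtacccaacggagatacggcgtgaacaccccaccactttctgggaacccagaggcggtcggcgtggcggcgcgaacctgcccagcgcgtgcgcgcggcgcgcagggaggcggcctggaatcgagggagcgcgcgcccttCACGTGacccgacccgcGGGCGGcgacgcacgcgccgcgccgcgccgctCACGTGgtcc
TRPC1 (chr3:142723784-142724033, plus strand): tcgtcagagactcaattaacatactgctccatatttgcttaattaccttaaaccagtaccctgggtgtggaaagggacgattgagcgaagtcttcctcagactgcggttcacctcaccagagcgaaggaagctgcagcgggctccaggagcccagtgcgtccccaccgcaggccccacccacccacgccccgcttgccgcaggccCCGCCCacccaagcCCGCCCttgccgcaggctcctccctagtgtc
PKD2 (chr4:88007385-88007634, plus strand): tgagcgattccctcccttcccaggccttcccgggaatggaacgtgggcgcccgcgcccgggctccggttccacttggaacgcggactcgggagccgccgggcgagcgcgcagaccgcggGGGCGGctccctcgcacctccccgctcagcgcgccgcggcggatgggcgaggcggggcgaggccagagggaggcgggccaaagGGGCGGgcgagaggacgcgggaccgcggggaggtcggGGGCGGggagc

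MCOLN1 and TRPM7 each held 2 E-boxes in this window and 1 GC box. TRPM4 held 0 E-boxes and 3 GC boxes, TRPC1 held 0 and 2, and PKD2 held 0 and 3. Among 35116 promoters of the same length, 6.34% held the E-box letters and 42.6% held the GC box letters. A match describes the letters only and does not show that a factor is bound.

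TRPM4 was transcribed in all 8 libraries and was higher in MDA-MB468 than in BT549. In MDA-MB468 its level was 49.0 CPM in parental control cells, 47.8 in parental cells after Acetalax, 60.2 in CE control cells and 59.0 in CE cells after Acetalax. In BT549 it was 20.1, 14.4, 31.6 and 20.5 CPM in the same order. The lowest MDA-MB468 library thus lay above the highest BT549 library. Over all 8 libraries TRPM4 was lower in BT549 by a log2 fold change of -1.20 (SE 0.18; adjusted p = 0.00195, edgeR quasi-likelihood test with Benjamini-Hochberg adjustment over all genes tested). In this test between the lines 56.8% of 19693 genes were called, and 8 of the 9 members tested were among them. Its p-values, here and below, set the difference against its spread over the 4 conditions. The 4 libraries of a line are not independent cultures as far as the labels say.

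**Figure D1:**
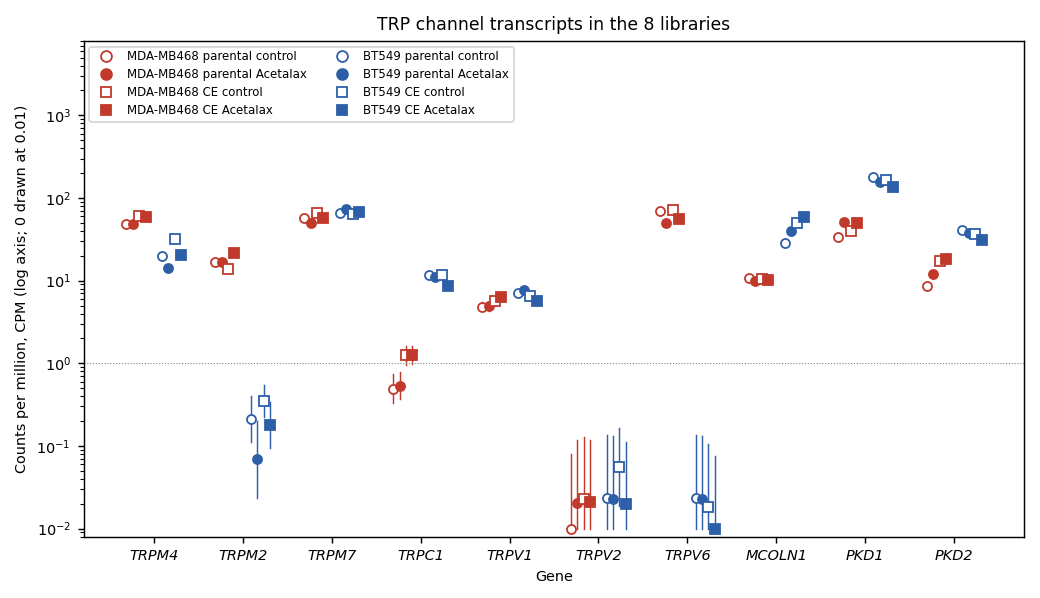
Level of each TRP gene in CPM (log axis) in the 8 libraries, with 95% Wilson intervals that cover counting error only; red is MDA-MB468, blue is BT549, circles are parental, squares are CE, open symbols are controls and filled symbols are Acetalax-treated cells. TRPM4 lies between 47.8 and 60.2 CPM in MDA-MB468 and between 14.4 and 31.6 CPM in BT549, whereas TRPV2 is near 0 in every library.

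TRPV6 and TRPM2 were expressed in MDA-MB468 and were near 0 in BT549. TRPV6 (chr7:142568956-142583507, minus strand) had 3419, 2426, 3140 and 2672 counts in the MDA-MB468 libraries (49.9 to 71.1 CPM) and 1, 1, 1 and 0 counts in those of BT549, a pooled ratio of 3920 with a 95% counting interval from 1341 to 19011. TRPM2 (chr21:45770046-45862964, plus strand), a calcium channel opened by oxidative stress, had 811, 811, 602 and 1036 counts in MDA-MB468 and 9, 3, 19 and 9 in BT549. Both were called lower in BT549 by edgeR, with adjusted p = 9.91e-06 for TRPV6 and 1.36e-04 for TRPM2. Neither gene's libraries overlapped between the lines.

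TRPC1, PKD1, PKD2 and MCOLN1 were higher in BT549. Of these, PKD1, PKD2 and MCOLN1 were also well over 1 CPM in every MDA-MB468 library. TRPC1, a subunit of calcium entry channels, had 24, 26, 55 and 60 counts in MDA-MB468 and 493, 475, 635 and 437 counts in BT549, a log2 fold change of 3.87 (SE 0.37; edgeR adjusted p = 3.33e-04). PKD1 (chr16:2138711-2185899, minus strand) was at 33.8, 51.8, 40.4 and 50.1 CPM in MDA-MB468 and at 179, 158, 164 and 137 CPM in BT549 (log2 fold change 2.04, SE 0.18). For PKD2 the values were 8.58, 12.04, 17.5 and 18.5 CPM in MDA-MB468 against 41.1, 37.8, 36.6 and 31.0 CPM in BT549 (log2 fold change 1.59, SE 0.25). MCOLN1 was at 10.8, 9.78, 10.4 and 10.1 CPM against 28.3, 39.4, 50.1 and 58.1 CPM (log2 fold change 2.22, SE 0.25). In all 4 genes every BT549 library was above every MDA-MB468 library. How many of all genes separate the lines in this way, as TRPM4, TRPV6 and TRPM2 also do, was not counted. The separation is therefore not shown to be particular to these members. The edgeR test between the lines called 56.8% of 19693 genes. PKD1 counts are uncertain, because near-identical copies of the gene lie on the same chromosome and its exons overlap those of TSC2 on the opposite strand over 784 bp.

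TRPM7 and TRPV1 were the expressed members at similar levels in both lines. TRPM7 was at 57.2, 49.5, 65.5 and 57.2 CPM in MDA-MB468 and at 66.7, 72.7, 64.4 and 67.8 CPM in BT549. These ranges overlapped, and the edgeR call in favour of BT549 (log2 fold change 0.41, SE 0.14; adjusted p = 0.042) was lost whenever any 1 of the 4 conditions was left out (adjusted p from 0.056 to 0.158). TRPV1 (chr17:3468738-3500392, minus strand), the heat- and capsaicin-gated channel, was at 4.83, 4.88, 5.71 and 6.39 CPM in MDA-MB468 and at 7.10, 7.75, 6.56 and 5.67 CPM in BT549. It did not pass the edgeR test (log2 fold change 0.48, SE 0.22; adjusted p = 0.112) and passed that of DESeq2 (adjusted p = 0.048). TRPV1 counts are uncertain as well, because its exons overlap other protein-coding genes on the same strand. The overlap is 1519 bp (27.5% of its exons) with ENSG00000262304 and 242 bp with SHPK. TRPV2 (chr17:16318856-16340317, plus strand) had 0, 1, 1 and 1 counts in MDA-MB468 and 1, 1, 3 and 1 in BT549, at or under the 3 counts that a count of 0 allows, so no fold is given for it.

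To set the genes against each other, CPM was divided by kilobases of exon (FPKM), once with all exons of a gene merged and once with its canonical transcript. In MDA-MB468 parental control cells TRPM4 was the highest member with merged exons, at 7.42 FPKM, followed by TRPV6 at 5.91 and TRPM7 at 4.62. With canonical transcripts TRPV6 was highest at 24.2 FPKM and TRPM4 came next at 12.1, since the merged exons of TRPV6 span 11887 bp and its canonical transcript 2906 bp. In all 4 MDA-MB468 libraries TRPM4 was above TRPV6 with merged exons and below it with canonical transcripts. TRPM7 came next after these genes in the control cells of that line with either length.

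In BT549 parental control cells TRPM4 had rank 5 of the 10 with either length, at 3.05 FPKM with merged exons, below PKD1 at 9.63, PKD2 at 7.44, MCOLN1 at 7.16 and TRPM7 at 5.39. In BT549 CE control cells MCOLN1 was the highest member with either length, at 12.7 FPKM with merged exons and 24.1 with the canonical transcript. TRPM4 made up 26.8% to 28.7% of the summed FPKM of the 10 members in the MDA-MB468 libraries and 5.88% to 11.4% in those of BT549 (merged exons). With canonical transcripts these shares were 21.8% to 25.4% and 6.78% to 12.8%.

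**Figure D2:**
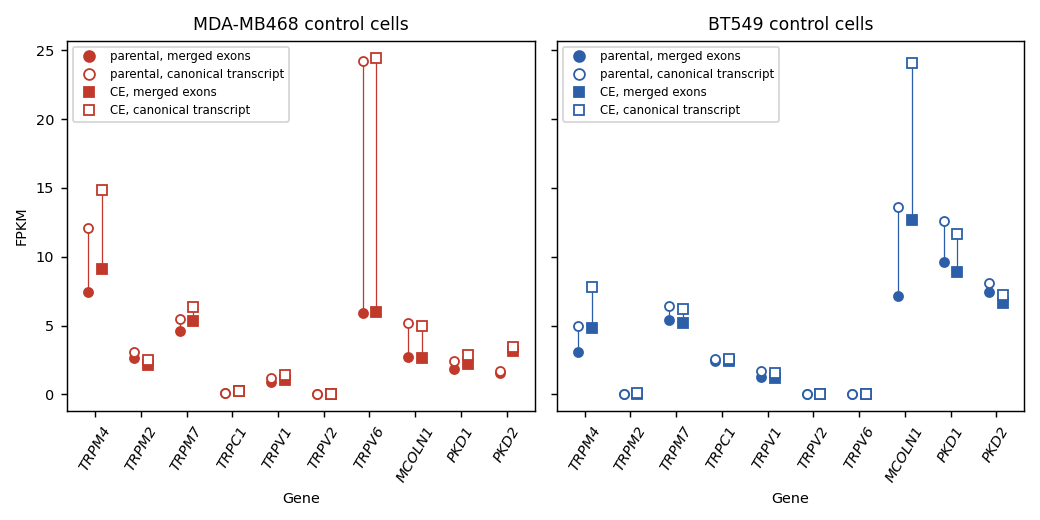
FPKM of the 10 TRP genes in control cells of MDA-MB468 (left) and BT549 (right); circles are parental, squares are CE, filled symbols use merged exons and open symbols the canonical transcript. TRPV6 in MDA-MB468 moves from 5.91 to 24.2 FPKM with the length used, and MCOLN1 in BT549 is higher in CE than in parental control cells with either length (12.7 against 7.16 FPKM with merged exons).

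In CE cells the TRPM4 transcript was not lower than in parental cells. In the control cells it was higher by a log2 ratio of 0.30 in MDA-MB468 (95% counting interval 0.22 to 0.38; 2383 counts in parental and 2656 in CE cells) and by 0.65 in BT549 (0.53 to 0.77; 850 and 1716 counts). After Acetalax the CE over parental ratios were 0.30 and 0.51. All 4 CE libraries were thus above the parental library of the same line and treatment. Tested within each line over the control pair and the Acetalax pair, TRPM4 rose in BT549 CE cells (log2 fold change 0.68, SE 0.13; edgeR adjusted p = 0.00811) and did not pass the threshold in MDA-MB468 (0.26, SE 0.12; adjusted p = 0.361). The difference between the lines did not pass either (0.42 on the log2 scale, SE 0.18; adjusted p = 0.184). These tests within lines were added after the values had been seen. They were fitted on all 8 libraries, so the spread behind their p-values is shared by both lines. That spread lies between library pairs of 1 CE population per line, not between separately derived populations. All these values are RNA and do not measure the TRPM4 protein. The paper reports that both CE lines resisted Acetalax and that their TRPM4 protein could hardly be detected on blots. It describes the TRPM4 transcripts of these cells as unchanged.

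Among the other channels, different members were higher in the CE cells of each line. In BT549 CE cells MCOLN1 rose with TRPM4, by a log2 fold change of 0.78 (SE 0.14; edgeR adjusted p = 0.00603), from 28.3 to 50.1 CPM in control cells and from 39.4 to 58.1 CPM after Acetalax. In MDA-MB468 its CE over parental ratios were -0.05 in control cells and 0.04 after Acetalax, with counting intervals that span 0. The difference between the lines passed the test (0.83 on the log2 scale, SE 0.20; adjusted p = 0.0339).

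In MDA-MB468 CE cells PKD2 and TRPC1 rose. PKD2, the channel subunit of the polycystin complex, went from 8.58 to 17.5 CPM in control cells and from 12.04 to 18.5 CPM after Acetalax (log2 fold change 0.78, SE 0.16; edgeR adjusted p = 0.0339). TRPC1 went from 24 to 55 counts in control cells and from 26 to 60 counts after Acetalax (1.24, SE 0.26; adjusted p = 0.0383), which left it at 1.25 and 1.26 CPM. Even so, TRPC1 in MDA-MB468 CE control cells remained 9.32-fold below BT549 CE control cells. In BT549 the CE over parental log2 ratios of control cells were -0.17 for PKD2 and 0.00 for TRPC1. Both differences between the lines passed the test, at -0.92 for PKD2 (SE 0.22; adjusted p = 0.033) and -1.32 for TRPC1 (SE 0.32; adjusted p = 0.0351).

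These within-line tests called 2 of 9 members in MDA-MB468, where 4.42% of 19693 genes were called, and 2 of 9 in BT549, where 22.4% were called. The test of the difference between lines called 3 of 9 members and 12.2% of all genes. In control cells alone, PKD2 and TRPC1 were at least 1.5-fold apart in MDA-MB468 (2 of 9 members, against 13.1% of the 14030 genes), and TRPM4, MCOLN1 and TRPM2 in BT549 (3 of 9, against 32.1%), where TRPM2 rested on 9 and 19 counts. Among genes that averaged 1 CPM over the pair itself, these were 1 of 8 members (PKD2) against 11.5% of genes, and 2 of 7 against 29.9%. The median log2 ratio over the 9 members was 0.24 in MDA-MB468 and -0.05 in BT549, beside 0.04 and -0.05 over all genes. When both lines were taken as replicates in a fit of the 4 control libraries, edgeR called 0 of 18377 genes (0.0%), 610 genes had an unadjusted p under 0.05, and DESeq2 called 46. TRPM4 had a log2 fold change of 0.48 there (SE 0.22; adjusted p = 0.947).

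**Figure D3:**
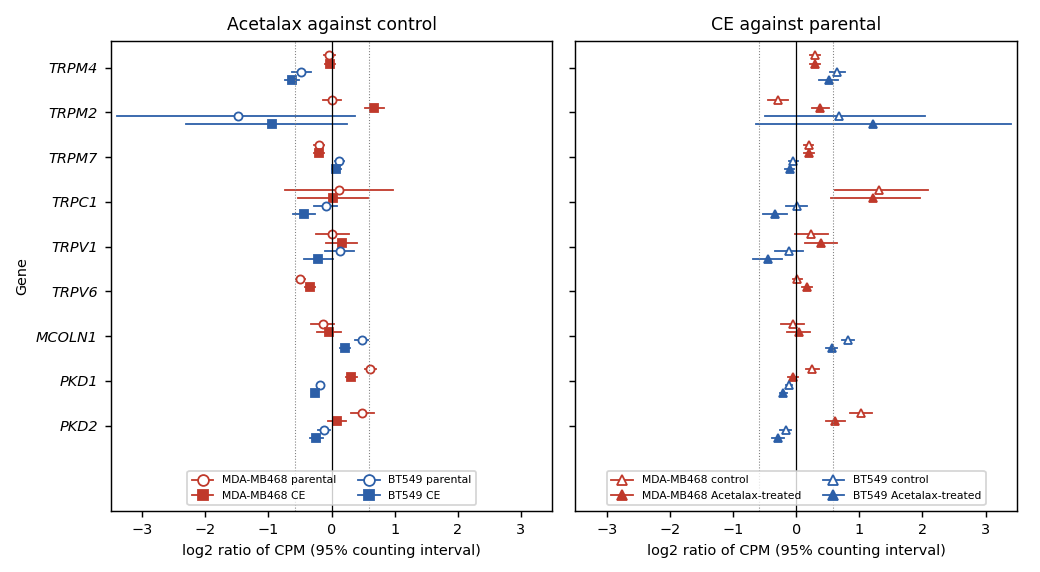
Log2 ratio of CPM for 9 TRP genes after Acetalax against control (left) and in CE against parental cells (right), each from 1 pair of libraries with its 95% counting interval; dotted lines mark 1.5-fold, intervals wider than the axis are clipped at its edge, and TRPV6 is not drawn in BT549, where it had at most 1 count. In the right panel PKD2 and TRPC1 stand apart in MDA-MB468, and TRPM4 and MCOLN1 in BT549.

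**Figure D4:**
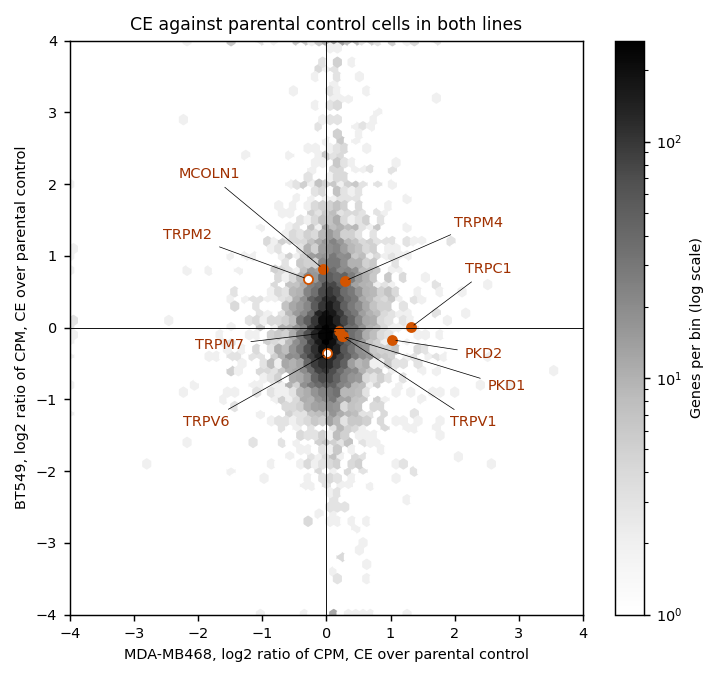
CE over parental log2 ratio of CPM in control cells of MDA-MB468 (x axis) and BT549 (y axis) for the 14030 genes that averaged 1 CPM or more (grey, log colour scale, values clipped at the axis limits) and the TRP genes (orange; open symbols rest on fewer than 20 counts in the BT549 libraries). TRPM4 is at 0.30 and 0.65, MCOLN1 at -0.05 and 0.82, PKD2 at 1.03 and -0.17, and TRPC1 at 1.32 and 0.00.

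TRPM2, TRPM7, TRPV1, TRPV6 and PKD1 did not pass the within-line CE tests. TRPV6 in MDA-MB468 had a CE over parental log2 ratio of 0.02 in control cells (interval -0.05 to 0.09), on 3419 and 3140 counts. TRPM7, which shares the paired E-boxes of MCOLN1, had 0.20 in MDA-MB468 and -0.05 in BT549. TRPM2 in MDA-MB468 was lower in CE control cells (-0.29, interval -0.45 to -0.14) and higher in CE cells after Acetalax (0.38, interval 0.25 to 0.52), so that its direction turned with the treatment.

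After 6 hours of Acetalax TRPM4 itself was lower in BT549 and nearly level in MDA-MB468. In BT549 it had a log2 ratio of -0.48 in parental cells (interval -0.63 to -0.33) and -0.62 in CE cells (-0.74 to -0.51). In MDA-MB468 the ratios were -0.04 and -0.03, with intervals that span 0. Tested over both BT549 pairs, the log2 fold change was -0.44 (SE 0.13) with adjusted p = 0.0608 by edgeR and 0.0334 by DESeq2, so the call depended on the tool. The difference between the lines did not pass (-0.47, SE 0.18; edgeR adjusted p = 0.238). The value in BT549 CE cells also moved with the scaling: the median of all genes in that pair was -0.21 by total counts, and scaling by the trimmed mean of M values (TMM) shifted it by 0.19 and TRPM4 to -0.43.

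PKD1 was the single member that changed after Acetalax by the edgeR test within a line. In MDA-MB468 it went from 33.8 to 51.8 CPM in parental cells and from 40.4 to 50.1 CPM in CE cells (log2 fold change 0.53, SE 0.12; adjusted p = 0.0431). In BT549 the ratios were -0.18 and -0.26, but the difference between the lines did not pass (-0.63, SE 0.17; adjusted p = 0.115). MCOLN1 went from 28.3 to 39.4 CPM in BT549 parental cells and from 50.1 to 58.1 CPM in CE cells (0.46, SE 0.14), with adjusted p = 0.0649 by edgeR and 0.0337 by DESeq2. TRPV6 had log2 ratios of -0.49 and -0.34 in MDA-MB468 parental and CE cells and did not pass (-0.35, SE 0.15; edgeR adjusted p = 0.197). TRPM2 was 1.6-fold higher after Acetalax in MDA-MB468 CE cells, with 602 and 1036 counts, and level in parental cells, with 811 in both libraries.

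In these within-line tests 1 of 9 members was called in MDA-MB468 (6.64% of all genes) and 0 of 9 in BT549 (13.0% of all genes), where MCOLN1 and TRPM4 had an unadjusted p under 0.05 and were the 2 members that DESeq2 called. The test of the difference in response between the lines called 0 of 9 members (1.78% of all genes), of which 4 had an unadjusted p under 0.05 and 0 were called by DESeq2. By a 1.5-fold limit 1 of 9 members was past it in MDA-MB468 parental cells (25.9% of genes), 1 in MDA-MB468 CE cells (16.6%), 1 in BT549 parental cells (20.3%) and 3 in BT549 CE cells (38.5%). These were PKD1 and TRPM2 in the MDA-MB468 pairs, while the BT549 tallies included TRPM2, on 9 and 3 or 19 and 9 counts, and TRPV6, on 1 and 0 counts, which passed the filter on low values through MDA-MB468 alone. Among genes that averaged 1 CPM over the pair itself, 0 of 7 members were past the limit in BT549 parental cells (17.1% of genes) and 1 of 7, TRPM4, in BT549 CE cells (36.2%). Taking the lines as replicates, edgeR called 0 of 19693 genes after Acetalax in parental cells (0.0%; 1710 with an unadjusted p under 0.05, and 75 by DESeq2) and 0 in CE cells (0.0%; 2311 and 289). For the difference between the CE and the parental response it called 0 genes (0.0%; 91 with an unadjusted p under 0.05, and 0 by DESeq2).

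The other 18 TRP genes summed to 5.79, 5.95, 6.29 and 6.35 FPKM (merged exons) in the MDA-MB468 libraries and to 5.43, 5.73, 3.12 and 4.82 FPKM in those of BT549, where TRPM4 alone was at 3.05, 2.18, 4.79 and 3.11 FPKM. Of these, 5 averaged at least 1 CPM, and TRPM5, the closest relative of TRPM4 and likewise a monovalent cation channel opened by calcium, had 1 to 13 counts in every library. TRPC4 was at 0 counts in the 4 MDA-MB468 libraries and at 13.3, 15.1, 12.7 and 28.2 CPM in BT549. In BT549 CE cells, of 9 that were tested, TRPV4 rose (log2 fold change 1.58, SE 0.37) on 7 to 33 counts, which is under 1 CPM. Its mean over the 8 libraries, 2.52 CPM, reached 1 CPM through MDA-MB468 alone. MCOLN3, MCOLN2 and TRPV3 were among those that fell in BT549 CE cells. That test called 22.4% of all genes. MCOLN3, the mucolipin relative of MCOLN1, went from 13.1 to 3.48 CPM in control cells (-1.83, SE 0.18; edgeR adjusted p = 3.86e-04). In MDA-MB468 CE cells edgeR called 0 of these 9 (4.42% of all genes), with 1 at an unadjusted p under 0.05 and 0 called by DESeq2.

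Among 10 partners and regulators of TRPM4, of which 9 were tested, KCTD5, a cullin adaptor that binds TRPM4, stood out between the lines. It had 1, 5, 13 and 20 counts in MDA-MB468 and 51.1, 56.7, 42.9 and 53.0 CPM in BT549. It was called higher in MDA-MB468 CE cells (log2 fold change 2.46, SE 0.48; edgeR adjusted p = 0.0313) while staying under 1 CPM. Its mean over the 8 libraries reached 1 CPM through BT549 alone. YWHAG, the 14-3-3 gamma protein involved in bringing TRPM4 to the cell surface, rose after Acetalax in MDA-MB468 (0.53, SE 0.12) and in BT549 (0.45, SE 0.11). In BT549 CE cells the mechanosensitive channel PIEZO1 rose (0.38, SE 0.11) and CALM2, a calmodulin gene, fell (-0.28, SE 0.08), and MAPRE1, a microtubule end-binding protein, rose after Acetalax in BT549 (0.52, SE 0.11). Of the 9, edgeR called 1 in the CE cells of MDA-MB468 (4.42% of all genes), 2 in those of BT549 (22.4%), and 1 (6.64%) and 2 (13.0%) after Acetalax. ABCC8, the sulfonylurea receptor SUR1 that pairs with TRPM4, had at most 5 counts.

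Of 5 regulators of MCOLN1 or of polycystin maturation, 4 were called in BT549 CE cells, in a test that called 22.4% of all genes. TFEB, the transcription factor of lysosomal genes, went from 2.48 to 5.83 CPM in control cells (log2 fold change 1.31, SE 0.18; edgeR adjusted p = 0.00219) and MITF, of the same family, fell by 1.63 on the log2 scale (SE 0.23). GANAB and PRKCSH, the subunits of the endoplasmic reticulum glucosidase II needed for polycystin maturation, rose by 0.86 (SE 0.08) and 0.74 (SE 0.09). In MDA-MB468 CE cells TFEB fell from 17.0 to 10.2 CPM in control cells (-0.83, SE 0.17; adjusted p = 0.0369), the 1 call there among the 5 (4.42% of all genes). After Acetalax MITF rose in MDA-MB468 (1.46, SE 0.23) and TFE3 in BT549 (0.67, SE 0.14), 1 of 5 in each line (6.64% and 13.0% of all genes). MCOLN1 and TFEB were both higher in BT549 CE cells. Between the lines their directions were opposite: edgeR called TFEB lower and MCOLN1 higher in BT549. TFE3 was called higher there too, in a test that called 56.8% of all genes. The part of TFEB in the MCOLN1 level was not tested.

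Other cation and calcium-activated channels were also called in BT549 CE cells, 5 of the 11 tested, beside 22.4% of all genes. ANO1, a calcium-activated chloride channel, went from 449 to 10 counts in control cells (log2 fold change -5.36, SE 0.22; edgeR adjusted p = 5.39e-06), and KCNMA1 and NALCN fell, while P2RX4, an ATP-gated cation channel, rose from 3.67 to 11.7 CPM (1.92, SE 0.19). In MDA-MB468 CE cells KCNMA1, a calcium-activated potassium channel, rose (1.33, SE 0.20). After Acetalax NALCN, the sodium leak channel, rose in MDA-MB468 from 2.63 to 7.29 CPM in parental and from 1.29 to 4.94 CPM in CE cells (1.75, SE 0.24), and SCNN1A fell (-0.55, SE 0.11). In BT549 KCNN4, another potassium channel opened by calcium, fell after Acetalax (-0.87, SE 0.14).

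The lines were also set against marker genes. Epithelial markers (6 genes) summed to between 6783 and 9307 CPM in MDA-MB468. In BT549 they summed to 9.06 CPM in parental control and 5.75 CPM in parental treated cells, and to 87.5 and 51.7 CPM in CE cells. There edgeR called 4 of the 6 higher (CDH1, KRT8, KRT18 and KRT19), beside 22.4% of all genes called. EPCAM and KRT5 were lower in the control pair but near the floor, with 2 and 0 counts in their lowest BT549 library. CDH1 had 10 counts in its lowest. Only 2 of the 6 reached 1 CPM in BT549 parental control cells, 1 in parental treated cells and 3 in each CE library. In every MDA-MB468 library all 6 did. The sum in BT549 was thus higher in CE cells, as TRPM4 and MCOLN1 were. After Acetalax it was lower, as TRPM4 was, whereas MCOLN1 was higher. Mesenchymal markers (5 genes) summed to 40.1 and 55.7 CPM in parental and 15.6 and 17.5 CPM in CE cells of MDA-MB468. In BT549 they summed to 3704 and 3749 CPM in parental and 5071 and 5007 CPM in CE cells, where SPARC rose (log2 fold change 3.07, SE 0.23) while VIM, FN1 and CDH2 fell by 0.50, 1.20 and 0.84 on the log2 scale. The part of these shifts in the TRP differences was not tested. Genes of blood and liver cells (5) summed to at most 0.87 CPM, with CD3E and HBB at 0. Of the receptors whose absence defines the triple-negative class, PGR was at 0 to 0.63 CPM, ESR1 at 0 to 5.15 CPM and ERBB2 at 41.2 to 95.2 CPM. The series holds no line outside this class to scale these levels.

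The genes most like TRPM4 were taken as those with the highest Pearson correlation of log2 levels over the 8 libraries after each line's mean was removed, among 11134 genes. They were SFXN5 (0.994), ADA (0.989), SLC35F6 (0.988), PARP4 (0.988) and FAM45A (0.988), values that were picked as the highest and are descriptive. Among the members the highest was TRPM2 at 0.44, followed by TRPC1 at 0.41 and MCOLN1 at 0.33. Their ranks among the 11134 genes were only 3498, 3686 and 4190, so no member followed TRPM4 closely. TRPM2 also had just 3 to 19 counts in the BT549 libraries.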

How the data were processed

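The 8 conditions were each measured with 1 library, and groups were read from the sample labels. The authors aligned reads to hg19 with STAR (2.7.11b in the submitters' processing notes; the paper's methods name another release) and deposited raw counts per gene, whole numbers that were not normalized. Neither the annotation nor the strand column is given in the sources used here.

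The table had 58154 rows for 55679 identifiers; 2475 repeated rows were dropped, 3 identifiers had repeats that differed, and PKD1 was listed a second time with the same counts. No row lacked a gene (0). Library totals ran from 42261122 to 54241728 counts (median 48064282), so 1 CPM is 42.3 to 54.2 counts. Intervals (95%, Wilson for CPM, exact conditional binomial for log2 ratios with 0.5 counts added) cover counting error only. FPKM used exon lengths of GENCODE on GRCh37.

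Tests were run by quasi-likelihood in edgeR (version 4.0.16 under R 4.3.3) after TMM scaling and filterByExpr, with Benjamini-Hochberg adjustment over all genes tested and a threshold of 0.05. Acetalax in parental and CE cells was fitted on all 8 libraries with a level for each line and culture (2 residual degrees of freedom), CE in controls on 4 libraries with a line term (1), and line on all 8 (3). The tests within a line and of differences between lines (2 each) were chosen after seeing the data. Alternatives were DESeq2 (1.42.0), other scalings, log2(FPKM + 1), other filters, no line block, and leaving out each pair. Replicate numbers pair nothing here; the line is the block.

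All 10 members are named. From the other lists, genes averaging 1 CPM or more and past 1.5-fold in both lines or called by a test, and TRPM5, are named, up to 4 per list and comparison, for the CE and Acetalax comparisons. Of those called between the lines alone TRPC4 is named, and ABCC8 and marker genes were added. A result from the list of other TRP genes is not reported here. Members and lists were chosen with earlier results of these data known. Motifs were searched on both strands.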

Additional observations from a re-analysis of the deposited data

Results flagged for a closer look

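Differences between the lines under the same contrast drew attention in 5 genes. In CE against parental cells the lines differed by test for TRPC1 (-1.32 on the log2 scale, BT549 minus MDA-MB468), PKD2 (-0.92) and MCOLN1 (0.83). PKD2 was also higher in both MDA-MB468 pairs, with log2 ratios of 1.03 in control and 0.62 in Acetalax-treated cells, and lower in both BT549 pairs, at -0.17 and -0.29.

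After Acetalax PKD1 was higher in both MDA-MB468 pairs, at 0.62 in parental and 0.31 in CE cells, and lower in both BT549 pairs, at -0.18 and -0.26. TRPM7 was lower in both MDA-MB468 pairs, at -0.21 and -0.20, and slightly higher in both BT549 pairs, at 0.12 and 0.074. By edgeR the difference in response between the lines did not pass the threshold for either gene (adjusted p = 0.115 for PKD1 and 0.306 for TRPM7).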

How the results depend on the processing

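The TRPM4 log2 ratio after Acetalax in MDA-MB468 CE cells was -0.03 by total counts and 0.055 with DESeq2 size factors, and that in BT549 CE cells went from -0.62 to -0.43 with TMM, -0.42 with DESeq2 size factors and -0.50 as a log2(FPKM + 1) difference. The CE over parental ratio of TRPM4 in BT549 control cells went from 0.65 to 0.52 on the log2(FPKM + 1) scale. With DESeq2 75 genes were called for Acetalax in parental cells, 289 in CE cells and 46 for CE controls, and with every gene of at least 1 count 643, 1080 and 45, against 0 by edgeR. Leaving out 1 line's pair gave 0 to 182 calls in parental cells (182 without the BT549 pair) and 0 to 207 in CE cells (207 without the MDA-MB468 pair). All 8 libraries in place of the 4 controls gave 23 calls for CE. DESeq2 called 926 genes for the difference in Acetalax response between lines, against 351. The cause of these shifts was not tested. Without the line as a replicate block, 0 genes were called in each of these 3 tests. Of 606 alternatives over all results, 542 stayed within the limits set, 47 moved, 12 became stronger and 5 weaker, the last all for TRPM7 between the lines. Those limits let a log2 ratio change sign inside its counting interval, and an uncalled fold change within its SE. No direction of a called value turned. Pairs with both libraries at or under 3 counts give no fold, and 1 library per condition leaves pair differences without a replicate check.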
